A study of Mus musculus with 12 samples.

Results

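The genes described here encode the classical guidance cues of axons and vessels and their receptors: semaphorins of classes 3 to 7, plexins, neuropilins, ephrins, Eph receptors, Slits, Robos, netrins and Unc5 receptors. All probe sets that the array's annotation assigns to exactly 1 gene with such a symbol were taken, which gave 101 of 20380 probe sets and 59 of 12393 genes. The symbol rule also took Unc50, which encodes a membrane protein of the Golgi and is no netrin receptor, and it is kept apart below. RNA came from sorted hind limb muscle cells of C57BL/6J mice aged 8 to 12 weeks, with no transgene or treatment named, on 3 groups of 4 Affymetrix Mouse 430A microarrays. Quiescent satellite cells, the resting stem cells of muscle, were positive for the antibody SM/C-2.6 and lysed directly after the sort, and the labels give over 97% of them as Pax7-positive. The activated satellite cells came from that fraction, grown for 4 days in DMEM with 20% FCS and 2.5 ng/ml bFGF, a fibroblast growth factor, and over 99% were MyoD-positive. Non-myogenic cells were negative for SM/C-2.6 and for the leukocyte antigen CD45, were also taken directly after the sort, and held under 1% myogenic cells.

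Guidance cues, secreted or held on the membrane, act on cells that carry the matching receptor. Class 3 semaphorins are secreted and mostly signal through a neuropilin that binds the ligand and a plexin that signals, while Sema3E binds Plexin-D1 directly. Ephrins are anchored in the membrane and signal to Eph receptor kinases on neighbouring cells, Slits bind Robo receptors, and Netrin-1 binds Dcc, neogenin and the Unc5 receptors. In muscle, Sema3A made by satellite cells has been linked to the timing of motor innervation, ephrins to satellite cell motility, and Ephrin-B2 with EphB4, Plexin-D1, Unc5B and Robo4 are known from blood vessels. In bulk samples such as these, fewer cells of a type and less RNA per cell cannot be told apart.

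Sema3e, Efnb2 and Unc5b rose at least 2-fold from quiescent to activated cells, and the bases upstream of their RefSeq start sites are shown. They were chosen for the size of that rise in these data, and whether they share any regulation was not tested. The windows of 250 bases end at the base before the start site of the RefSeq promoter table (GRCm38.p6), read 5′ to 3′ on the gene's strand. They lie at chr5:14025026-14025275 (plus strand) for Sema3e, chr8:8661243-8661492 (minus strand) for Efnb2 and chr10:60831582-60831831 (minus strand) for Unc5b. Capitals mark the letters CANNTG, the core of the E-box that MyoD and many other factors recognise, which read the same on both strands.
Sema3e: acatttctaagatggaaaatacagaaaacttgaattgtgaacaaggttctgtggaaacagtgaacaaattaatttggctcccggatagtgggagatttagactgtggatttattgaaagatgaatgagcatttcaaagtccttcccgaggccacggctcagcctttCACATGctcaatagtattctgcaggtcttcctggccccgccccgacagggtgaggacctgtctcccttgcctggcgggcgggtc
Efnb2: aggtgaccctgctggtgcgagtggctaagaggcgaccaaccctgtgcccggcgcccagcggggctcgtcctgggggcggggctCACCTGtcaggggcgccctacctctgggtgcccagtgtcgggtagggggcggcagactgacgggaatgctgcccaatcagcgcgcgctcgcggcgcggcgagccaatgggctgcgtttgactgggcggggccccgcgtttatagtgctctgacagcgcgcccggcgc
Unc5b: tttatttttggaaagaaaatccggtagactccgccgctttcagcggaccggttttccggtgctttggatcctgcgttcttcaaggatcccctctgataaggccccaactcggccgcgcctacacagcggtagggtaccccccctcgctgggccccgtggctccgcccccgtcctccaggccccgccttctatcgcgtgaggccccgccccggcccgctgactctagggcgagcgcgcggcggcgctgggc
The windows of Sema3e and Efnb2 held 1 match each and that of Unc5b held 0, and none of the 3 held the letters CAGCTG, a form of the motif. Over all 32851 RefSeq promoters 66.2% held CANNTG in the same window and 13.0% held CAGCTG. The tested guidance genes had 33 promoters there, of 27 genes, and 45.5% of these held CANNTG and 15.2% held CAGCTG. The GC content of the 3 windows was 48.0%, 72.0% and 66.8%, against a median of 52.4% over all promoters and 64.4% over those of the tested guidance genes.

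Signals are the deposited MAS5 intensities brought to the same trimmed mean, 235, on every array, and log2 differences are on the scale of log2(signal + 14.7), which understates differences of low signals. A gene was tested at the probe set with its highest mean if its mean signal reached 47.0, which 29 of the 59 genes did; since a gene can pass through the 1 group where it is high, counts over these 29 describe them only. Called means an adjusted p under 0.05 (limma, Benjamini-Hochberg over all 7960 genes tested). Both labelling kits, a small-sample kit on 5 arrays and a two-cycle kit on 7, occur in every group, and the kit is a term of the fit. Each kit holds 2 quiescent and 2 activated arrays, beside 1 non-myogenic array for the small-sample and 3 for the two-cycle kit. Fits within a kit thus rest on few arrays, and a call lost there may reflect that. The deposited trimmed means ran from 323 to 502 with the first and from 160 to 236 with the second. Whether the 4 arrays of a group stand for different animals or cultures is not in the labels; the p-values then reflect no more than the spread among these samples, which may be technical, and precision is limited by their number. Pax7 was highest in quiescent and Myod1 in activated cells, and markers of other cells are given below. Signals of Pax7, the factor that marks satellite cells, ran from 640.2 to 1899 in quiescent, 61.8 to 125 in activated and 1.24 to 6.66 in non-myogenic cells, and those of Myod1, the factor of myoblasts, from 813 to 1580.4, 3305 to 5829 and 32.6 to 40.9. Myod1 thus gave a clear signal in quiescent cells too, as did Myog, another myoblast marker, at 302 to 611. Of 6 committed myoblast markers 4 were called higher and 1 lower in activated than in quiescent cells, beside 31.8% and 38.2% of all genes.

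Between quiescent and activated cells 18 of the 29 tested guidance genes were called, 5 higher and 13 lower in activated cells, beside 70% of all genes tested (31.8% higher, 38.2% lower). The 3 large rises were those of a semaphorin, an ephrin and a netrin receptor, and the 8 called decreases of at least 2-fold were those of Sema3b, Plxnd1, Plxna2, Ntn1, Efna1, Robo4, Epha4 and Ephb4. Of all 7960 genes tested, 37.4% were called at 2-fold or more in either direction, 1265 higher and 1716 lower. The median log2 difference of the tested members was -0.48, beside -0.11 for all genes tested. Quantile normalization called 7 higher and 11 lower, and centring on the median called 8 and 9. In 13 of the 29 genes the arrays of both groups did not overlap, beside 53.4% of all genes. Within the small-sample kit 14 members were called and within the two-cycle kit 22. Activated cells alone were cultured, so activation cannot be told apart from culture. The 3'/5' ratio of the Gapdh control probe sets, a sign of RNA quality and amplification, differed too: 4.02 ± 0.969 (SD, n = 4) in quiescent, 1.75 ± 0.411 in activated and 3.87 ± 0.916 in non-myogenic cells. Its part in the results was not tested.

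**Figure D1:**
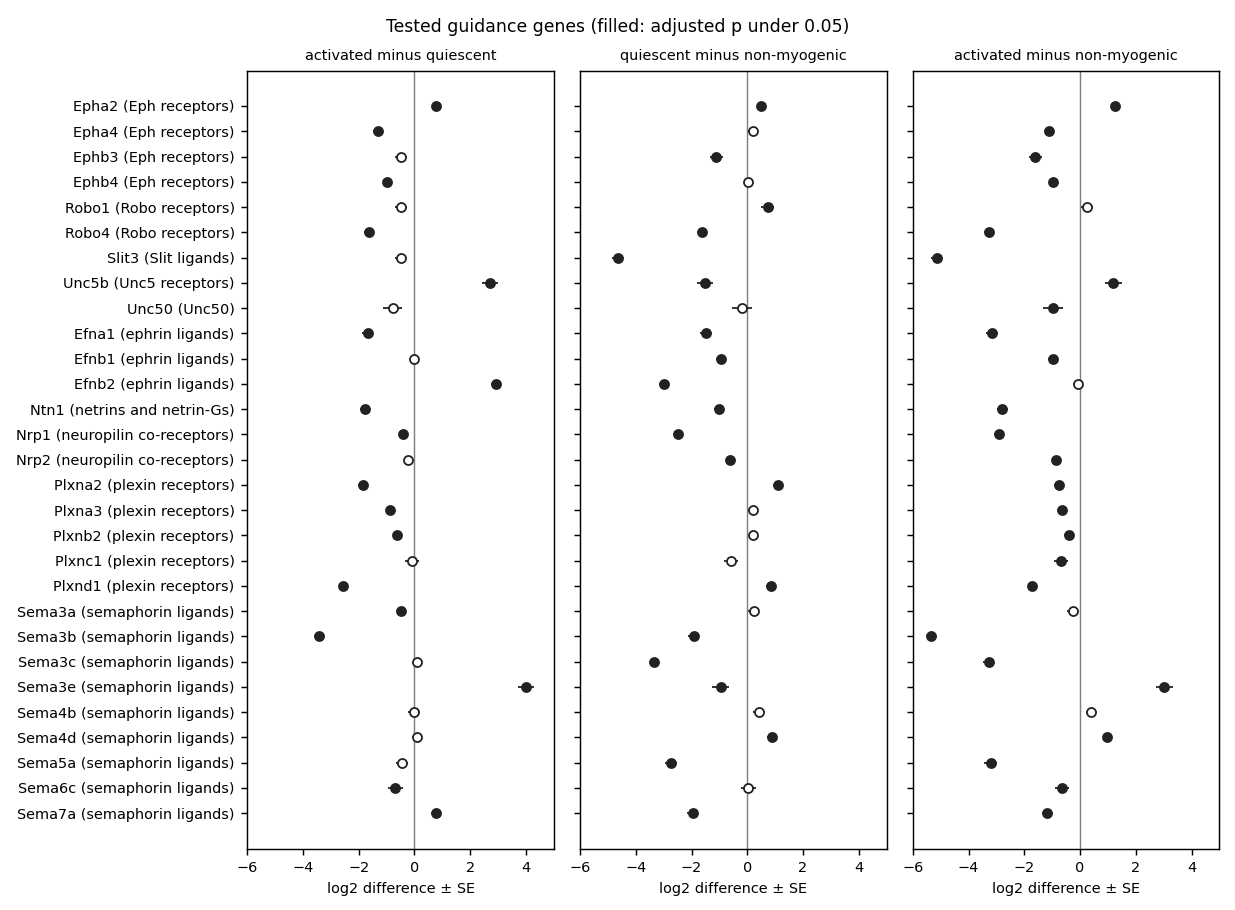
Log2 differences (x axis, with SE bars) of the 29 tested guidance genes (y axis, with their family) in the 3 comparisons, where filled points have an adjusted p under 0.05 and open points do not. Sema3e, Efnb2 and Unc5b lie farthest to the right in the first panel, and Slit3, Sema3c and Efnb2 farthest to the left in the second.

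Quiescent and non-myogenic cells differed in 20 of the 29 genes, 5 higher and 15 lower in quiescent cells, beside 52.9% of all genes called (26.4% higher, 26.6% lower). Plxna2 was the 1 member at least 2-fold higher in quiescent cells, and 12 were at least 2-fold lower: Slit3, Sema3c, Efnb2, Sema5a, Nrp1, Sema7a, Sema3b, Robo4, Unc5b, Efna1, Ephb3 and Ntn1. Of all 7960 genes, 22.1% were called at 2-fold or more in either direction, 666 higher and 1095 lower. The median log2 difference was -0.64, beside 0.03 for all genes, and the unscaled values gave 2 higher and 16 lower. Arrays did not overlap for 15 members, beside 39.7% of all genes. Activated and non-myogenic cells differed in 25 of the 29, 4 higher and 21 lower in activated cells, beside 72.4% of all genes (34.1% higher, 38.3% lower), with a median of -0.96 beside -0.07. Sema3e, Epha2 and Unc5b were at least 2-fold higher and 12 members at least 2-fold lower. Beside them, 43.2% of all genes were called at 2-fold or more in either direction, 1469 higher and 1971 lower. Centring on the median gave 6 higher and 15 lower there. Arrays did not overlap for 17 members, beside 61.6% of all genes. Each pair of these comparisons shares a group of arrays.

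Among the secreted semaphorins, Sema3e went from near-zero signal to a clear signal in culture. Its signals (probe set 1419717_at) were 1.37, 0.800, 1.32 and 6.33 on the quiescent arrays, 349, 527, 139.5 and 161 on the activated arrays and 32.8, 12.6, 5.21 and 14.0 on the non-myogenic arrays. Every activated array lay above every array of both other groups. The log2 difference was 3.99 ± 0.28 (SE; limma adjusted p 4.4e-08) against quiescent and 3.03 ± 0.29 (5.01e-07) against non-myogenic cells, and against quiescent cells it was 4.81 on the small-sample and 3.16 on the two-cycle arrays alone. With the pseudocount at 1/64 or 1/4 of the trimmed mean, in place of 1/16, the first difference was 5.47 or 2.38. A second probe set, 1427673_a_at, gave 4.23 and 4.08 for the comparisons with quiescent and with non-myogenic cells. The remaining probe set, 1425906_a_at, was under the signal filter and gave 2.08 and 1.80 in a fit with no filter. Quiescent cells were below non-myogenic cells by a log2 difference of -0.96 ± 0.29 (0.0137), which was not called with the larger pseudocount (-0.41), with the mean of the probe sets (-0.46) within the two-cycle kit (-0.45), with a replicate block or without non-myogenic replicate 1 (-0.86, 0.0602).

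Sema3b, a secreted semaphorin studied as a tumour suppressor, moved the other way. Probe set 1448415_a_at gave 338, 281, 179 and 172 in quiescent, 21.5, 15.1, 1.46 and 2.08 in activated and 787, 872, 747 and 938 in non-myogenic cells. The 3 groups did not overlap on any array. Sema3b fell by 3.41 ± 0.19 on the log2 scale from quiescent to activated cells (adjusted p 5.14e-09), with -3.30 and -3.53 within the kits. It was lower in quiescent than in non-myogenic cells by a log2 difference of -1.93 ± 0.20 (2.95e-06), and its probe set 1416644_a_at gave -1.53 and -1.49 for both comparisons, and the mean of its probe sets -1.96 and -1.54.

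Sema3c, which guides neural crest cells and vessels, and Sema5a, a membrane semaphorin with thrombospondin repeats, were high in the non-myogenic fraction. Sema3c signals were 18.8, 20.7, 13.6 and 23.4 in quiescent, 33.9, 27.6, 7.94 and 19.6 in activated and 356, 288, 277 and 328 in non-myogenic cells. The satellite cell groups overlapped each other and both lay below all non-myogenic arrays, with log2 differences from them of -3.36 ± 0.18 (quiescent, 7.41e-09) and -3.28 ± 0.18 (activated, 1.89e-09). Activated and quiescent cells differed in Sema3c by 0.08 ± 0.18 (0.706), and by 0.51 and 0.49 after quantile normalization and centring on the median, both called. Sema5a signals were 14.4, 2.55, 16.1 and 14.1 in quiescent, 4.38, 11.6, 1.46 and 0.656 in activated and 151, 163, 144 and 180.5 in non-myogenic cells. Again the non-myogenic arrays lay above all others. Its log2 differences from non-myogenic cells were -2.75 ± 0.22 and -3.21 ± 0.22 for quiescent and activated cells.

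Sema3a, the repellent ligand of neuropilin-1, had signals of 159.8, 205, 323 and 237 in quiescent, 147, 184, 159 and 138 in activated and 222, 166, 167 and 223 in non-myogenic cells. The 3 groups overlapped. The difference between activated and quiescent cells was -0.48 ± 0.19 on the log2 scale (adjusted p 0.0383), and it was not called with a replicate block (adjusted p 0.0657), with no term for the kit (0.0522), within the small-sample kit (-0.13) or as the mean of its probe sets (-0.04). Leaving out quiescent replicate 3 gave -0.31 (0.139), and the call was also lost without quiescent replicate 4 or activated replicate 1, 3 or 4.

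Of the membrane-bound semaphorins, Sema7a, a GPI-anchored ligand of integrins and Plexin-C1, was highest in non-myogenic cells. Its signals were 183, 129, 70.5 and 69.5 in quiescent, 195, 267, 196 and 126 in activated and 471, 353, 411 and 380.3 in non-myogenic cells. Only the non-myogenic arrays stood apart from both other groups, with a log2 difference of -1.96 ± 0.19 for quiescent cells (1.85e-06). The rise of 0.78 ± 0.19 in activated over quiescent cells (0.0021) was 0.53 within the small-sample kit (0.129), and 0.13 (0.42) as the mean of its 2 probe sets. Sema4d, a ligand of B-class plexins, was higher in satellite cells, with 133, 105, 96.6 and 77.4 in quiescent, 157, 131, 80.2 and 81.3 in activated and 79.8, 30.6, 41.3 and 24.7 in non-myogenic cells. Its log2 differences from non-myogenic cells were 0.89 ± 0.17 (quiescent, 0.000623) and 0.98 ± 0.17 (activated, 0.000147), and activated cells differed from quiescent cells by 0.08 ± 0.17 (0.673), or 0.36 and 0.49 after quantile normalization and centring on the median, both called. Sema6c, a ligand of A-class plexins, was called lower in activated than in quiescent cells (-0.68 ± 0.26, adjusted p 0.0284), but not without quiescent replicate 1 or 4 or activated replicate 2, nor within the two-cycle kit (-0.42), nor after quantile normalization (-0.40, 0.199). Its signals ran from 55.3 to 224 in quiescent and 64.3 to 123 in activated cells. Sema4b, another class 4 ligand, was not called in any of the 3 comparisons, with log2 differences of -0.01, 0.42 and 0.41. It was called higher in quiescent than in non-myogenic cells within the two-cycle kit (0.79, 0.00619), with array weights (0.54) and without quiescent replicate 1 (0.58), and higher in activated than in non-myogenic cells without non-myogenic replicate 1 (0.59) or after quantile normalization (0.73) or centring on the median (0.84).

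**Figure D2:**
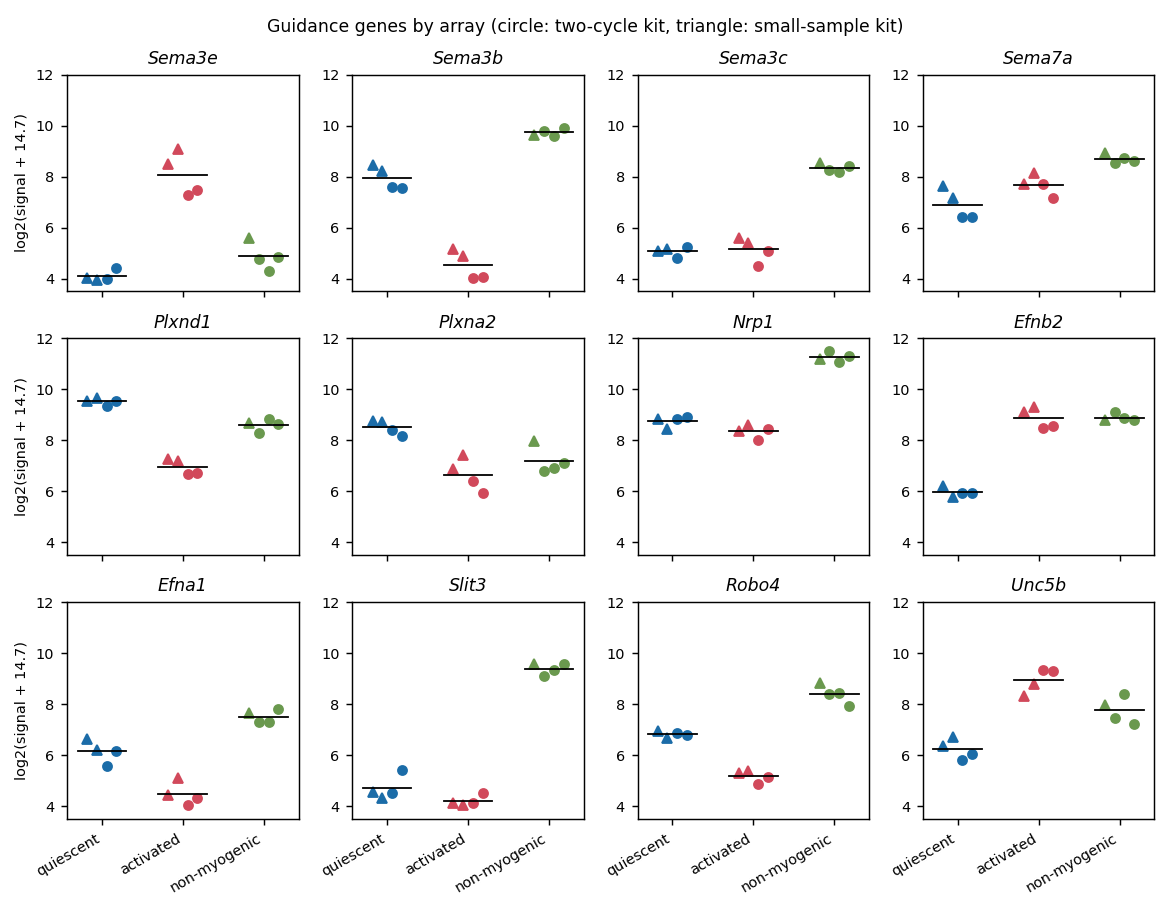
Signals of 12 guidance genes as log2(signal + 14.7) on each array (y axis) in quiescent, activated and non-myogenic cells (x axis), where circles are arrays of the two-cycle kit, triangles those of the small-sample kit and bars group means. The 4 activated arrays of Sema3e, Efnb2 and Unc5b lie above all quiescent arrays, and those of Sema3b, Plxnd1, Plxna2, Efna1 and Robo4 below them.

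Most of the tested plexin genes were lower in activated than in quiescent cells. Of the 7 plexin genes measured 5 passed the signal filter, and 4 of these were called lower and 0 higher, beside 38.2% of all genes called lower. Plxnd1, the receptor of Sema3E, had signals of 729.5, 797, 640.0 and 737 in quiescent, 139.9, 131, 87.0 and 89.4 in activated and 394, 298, 445 and 386 in non-myogenic cells. No arrays of any 2 groups overlapped, and the quiescent cells stood highest. Plxnd1 fell by 2.57 ± 0.15 on the log2 scale in activation (5.94-fold, 8.12e-09; -2.37 and -2.77 within the kits), while quiescent cells exceeded non-myogenic cells by 0.85 ± 0.16 (0.000513; 0.86 within the two-cycle kit, and 0.46 with adjusted p 0.0563 without scaling).

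Plxna2, a receptor of class 3 and class 6 semaphorins, showed the same order of quiescent over the other groups. It gave 421, 409.9, 322 and 277 in quiescent, 101, 155, 70.0 and 47.1 in activated and 237, 97.6, 107 and 123 in non-myogenic cells. The quiescent arrays lay above all others, by a log2 difference of 1.12 ± 0.18 from non-myogenic cells (0.000166), and Plxna2 fell by 1.86 ± 0.18 in activated cells (6.09e-07; -1.61 and -2.11 within the kits). The other called decreases were smaller. Plxna3, another partner of neuropilins, gave -0.87 ± 0.16 (0.000357; adjusted p 0.0652 with no term for the kit). Plxnb2, a receptor of class 4 semaphorins, had signals of 592, 504, 630.3 and 669 in quiescent, 368, 433, 399 and 322 in activated and 454, 494, 546 and 591 in non-myogenic cells. The activated arrays lay below all others, and the difference from quiescent cells was -0.64 ± 0.14 (0.00137), -0.22 (0.185) after centring on the median, -0.33 (0.155) unscaled and -0.44 (0.133) within the small-sample kit. Plxnc1, the receptor of Sema7A, differed by -0.09 ± 0.25 between activated and quiescent cells, with 0.56 within the small-sample and -0.73 within the two-cycle kit.

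Nrp1, the co-receptor of Sema3A and of a vascular endothelial growth factor, was highest in the non-myogenic fraction. Its signals were 439.8, 338, 447 and 473 in quiescent, 313, 374, 246 and 338 in activated and 2348, 2912, 2128 and 2532 in non-myogenic cells. The non-myogenic arrays lay apart, and the satellite cell groups overlapped. The log2 differences from non-myogenic cells were -2.50 ± 0.17 in quiescent (6.09e-08) and -2.91 ± 0.17 in activated cells (3.13e-09). Between activated and quiescent cells Nrp1 differed by -0.41 ± 0.17 (0.0421), which was 0.0045 after centring on the median, -0.17 within the small-sample kit and not called with a replicate block (adjusted p 0.0681). That call was also lost without quiescent replicate 1, 3 or 4, activated replicate 1, 3 or 4, or non-myogenic replicate 1 or 4, and the other probe sets, 1448943_at and 1448944_at, gave -1.33 (0.000624) and -0.33 (0.126). Nrp2, the co-receptor of Sema3F, was lower in both satellite groups than in non-myogenic cells by -0.64 ± 0.14 and -0.85 ± 0.14, neither of them called with no term for the kit (adjusted p 0.511 and 0.233) or with a replicate block (adjusted p 0.297 and 0.0745). The arrays overlapped, with 75.0 to 175 in quiescent, 54.9 to 151 in activated and 104 to 326 in non-myogenic cells.

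Among the ephrins, Efnb2, the transmembrane ligand of EphB receptors, was low in quiescent cells and higher in both other groups. Its probe set 1419639_at gave 58.4, 40.8, 46.0 and 46.0 in quiescent, 539, 616, 342 and 367 in activated and 435, 532, 456 and 428 in non-myogenic cells. The quiescent arrays lay below all others. Efnb2 rose by 2.91 ± 0.17 from quiescent to activated cells (7.51-fold, 7.32e-09; 3.21 and 2.60 within the kits) and was lower in quiescent than in non-myogenic cells by -3.0 ± 0.17 (1.47e-08). Activated and non-myogenic cells differed by -0.09 ± 0.17 (0.667), and by -0.39 (0.0378) within the two-cycle kit. Probe set 1419638_at gave 2.14 and -2.02 for the first comparisons, and the other 2 probe sets of Efnb2 had mean signals of 4.44 to 21.6 and gave 0.003 and 0.21 between activated and quiescent cells. The mean of the probe sets gave 1.32 and -1.33.

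Efna1, a GPI-anchored ligand of EphA2, ran in another order, with non-myogenic over quiescent over activated cells. Its signals were 84.6, 59.6, 33.3 and 57.1 in quiescent, 7.0, 19.4, 1.72 and 5.14 in activated and 189, 144, 142 and 207 in non-myogenic cells, without overlap. It fell by 1.68 ± 0.20 in activated cells (5.43e-06; -1.66 and -1.70 within the kits) and was lower in quiescent than in non-myogenic cells by -1.48 ± 0.20 (4.24e-05). Its other probe set, 1448510_at, was under the signal filter and gave -0.03 (0.873) and -1.78 in the unfiltered fit, and the mean of both gave -0.86 between activated and quiescent cells. Efnb1, an X-linked ephrin, was lower in both satellite groups than in non-myogenic cells, by -0.95 ± 0.15 (quiescent, 0.000155) and -0.98 ± 0.15 (activated, 5.33e-05). Activated and quiescent cells differed in it by -0.03 ± 0.15, and by 0.38 after centring on the median (0.0459).

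The Eph receptor genes went both ways. Epha2, the receptor of Ephrin-A1, rose in activated cells while its ligand gene fell. Signals of Epha2 were 272, 274, 139 and 177 in quiescent, 456, 419, 305 and 289.7 in activated and 216, 109, 86.9 and 112 in non-myogenic cells. All activated arrays lay above the quiescent ones (0.76 ± 0.14, 0.000284; 0.65 and 0.86 within the kits) and above the non-myogenic ones (1.26 ± 0.14, 2.76e-06), whereas quiescent and non-myogenic arrays overlapped (0.50 ± 0.14, 0.01; 0.12 with adjusted p 0.627 without scaling).

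Epha4, which binds ephrins of both classes, and Ephb4, the receptor of Ephrin-B2, fell in activated cells. Epha4 gave 87.7, 81.9, 62.7 and 59.0 in quiescent, 30.6, 39.2, 10.7 and 8.86 in activated and 99.3, 41.2, 45.0 and 35.7 in non-myogenic cells, with a log2 difference of -1.32 ± 0.16 between the first groups (5.32e-06; -1.01 and -1.63 within the kits). Ephb4 gave 79.3, 114, 83.7 and 87.8 in quiescent, 41.3, 44.1, 32.8 and 34.0 in activated and 76.9, 86.1, 93.9 and 87.4 in non-myogenic cells. Its activated arrays lay below all others, by -1.0 ± 0.14 from quiescent (2.37e-05) and -0.96 ± 0.14 from non-myogenic cells (3.5e-05), and quiescent and non-myogenic cells differed by 0.04 ± 0.14 (0.824). The transcripts of Ephrin-B2 and its receptor thus went in opposite directions between quiescent and activated cells. Ephb3, a receptor of B-class ephrins, was highest in non-myogenic cells, at 256, 358, 211 and 308 against 113, 101, 163 and 119 in quiescent and 95.2, 115, 55.2 and 74.6 in activated cells. The satellite cell groups overlapped and lay below all non-myogenic arrays. The log2 differences from non-myogenic cells were -1.11 ± 0.22 (0.000957) and -1.60 ± 0.22 (1.89e-05).

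Of the Slit and Robo genes, Slit3 was near zero in both satellite groups and clear in the non-myogenic fraction. Its signals were 8.79, 5.17, 7.91 and 28.4 in quiescent, 2.93, 1.92, 2.78 and 8.20 in activated and 743, 538, 630.2 and 744 in non-myogenic cells. The difference was -4.64 ± 0.22 for quiescent (2.01e-09; -5.43 and -3.33 with the smaller and larger pseudocount) and -5.13 ± 0.22 for activated cells (1.39e-10; -6.39 and -3.50). Between activated and quiescent cells Slit3 was not called (-0.49 ± 0.21, adjusted p 0.0548), but was with a replicate block (adjusted p 0.0286), with the smaller pseudocount (-0.96), with array weights (-0.68), or without quiescent replicate 2 or 3 (-0.60 in both cases) or non-myogenic replicate 1 (-0.49, 0.0468).

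Robo4, the endothelial Robo, gave 110.2, 88.2, 102 and 96.7 in quiescent, 25.1, 27.4, 14.7 and 20.3 in activated and 435, 318, 329.9 and 232 in non-myogenic cells. The groups did not overlap, and Robo4 fell by 1.65 ± 0.16 in activated cells (8.19e-07; -1.47 and -1.83 within the kits) and was lower in quiescent than in non-myogenic cells by -1.63 ± 0.16 (2.3e-06). Robo1, the main receptor of Slit2, was instead higher in quiescent than in non-myogenic cells, by 0.73 ± 0.23 (0.0149). That call was lost without quiescent replicate 3 or 4 (0.57 in both cases) and without scaling (0.36). Robo1 signals were 131, 107, 221 and 221 in quiescent, 109, 152, 92.8 and 101 in activated and 108, 93.0, 95.3 and 80.3 in non-myogenic cells, and its difference between activated and quiescent cells was -0.48 ± 0.22 (0.0655), with 0.11 within the small-sample and -1.08 within the two-cycle kit (0.00022). Without quiescent replicate 2 or activated replicate 2 that difference was called, at -0.67 and -0.65, and with array weights at -0.70.

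In the netrin group, Ntn1 fell and its receptor gene Unc5b rose in activated cells. Ntn1, which encodes the secreted cue Netrin-1, gave 241, 274, 169.7 and 187 in quiescent, 88.3, 90.9, 20.5 and 38.3 in activated and 626, 299, 298 and 377 in non-myogenic cells. The groups did not overlap. Ntn1 fell by 1.77 ± 0.18 (1.48e-06; -1.38 and -2.16 within the kits) and was lower in quiescent than in non-myogenic cells by -1.02 ± 0.19 (0.000483; adjusted p 0.0738 with no term for the kit). Its other probe set, 1422987_at, under the signal filter, gave -0.26 (0.374) and 0.04 (0.905), and the mean of both gave -1.01 and -0.49.

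Unc5b, a receptor through which Netrin-1 repels, gave 66.5, 89.2, 41.9 and 52.2 in quiescent, 303, 431, 634 and 623 in activated and 232, 159.9, 319 and 135 in non-myogenic cells. All activated arrays lay above all quiescent ones (2.71 ± 0.29, 6.54-fold, 2.21e-06), by 2.03 within the small-sample and 3.39 within the two-cycle kit. Activated and non-myogenic arrays overlapped (1.19 ± 0.30, 0.00262), and quiescent cells were lower than non-myogenic cells (-1.52 ± 0.30, 0.00081). Unc50, kept apart, was not called between activated and quiescent cells (-0.79 ± 0.35) except without quiescent replicate 1 (-1.09) or activated replicate 2 (-1.03), with array weights (-1.06) or within the two-cycle kit (-1.82), and its other probe sets 1421982_a_at and 1435812_at gave 0.76 and -1.06.

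The other 30 members did not pass the signal filter, with mean signals from 1.33 to 36.0 over all arrays, and they included Slit1, Slit2, Sema3f, Sema4a, Sema6a, Epha3, Ephb6, Ntn4, Ntng1 and Plxna1. In a fit with no filter, which tested all 59 members, 5 were called higher and 22 lower in activated than in quiescent cells, beside 54.9% of all genes called. Of the 30, Slit2, a ligand of Robo1, had a mean signal of 61.0 ± 27.8 (SD, n = 4) in quiescent and 13.9 ± 6.86 in activated cells, Sema6a, a ligand of Plexin-A2, 51.6 ± 22.5 and 9.98 ± 2.04, and Ephb6, an Eph receptor without kinase activity, 48.4 ± 17.3 and 14.8 ± 14.5. Their log2 differences in that fit were -1.36, -1.36 and -1.17. Ntng1, which encodes the membrane-anchored Netrin-G1, was at 66.4 ± 18.8 in non-myogenic cells against 11.2 ± 5.91 and 6.82 ± 2.56 in quiescent and activated cells. Between quiescent and non-myogenic cells the same fit called 8 members higher and 19 lower, beside 38.4% of all genes, and between activated and non-myogenic cells 4 and 31, beside 53%.

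**Figure D3:**
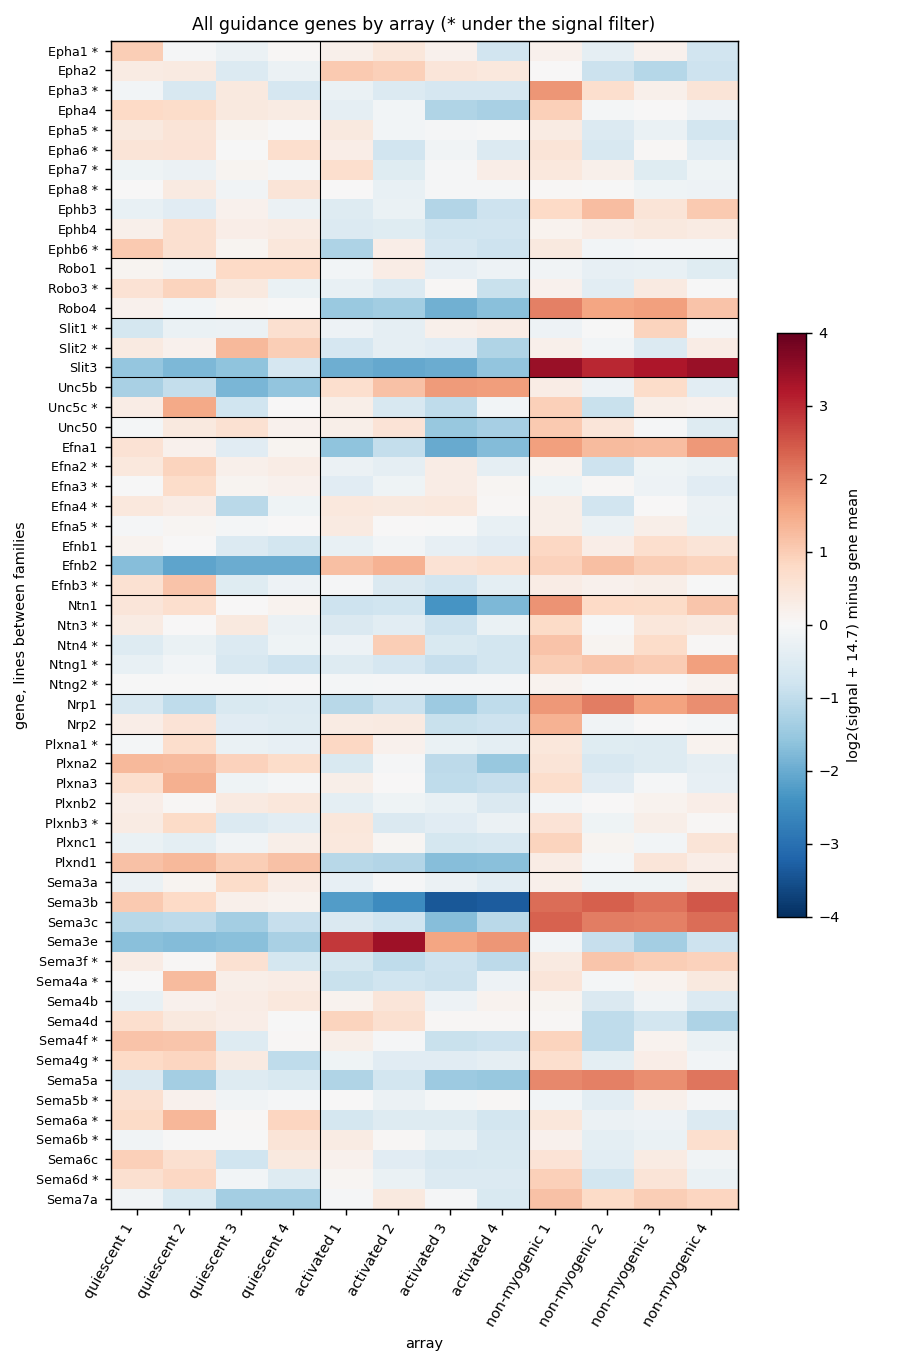
All 59 guidance genes (y axis, grouped by family) on the 12 arrays (x axis), coloured by log2(signal + 14.7) minus the gene's mean over the arrays, with a star for the 30 genes under the signal filter. Slit3, Sema5a, Sema3c and Nrp1 are red on the 4 non-myogenic arrays alone, and Sema3e on the 4 activated arrays.

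The other genes of these pathways, a list of 78 receptors, co-receptors and cytoplasmic effectors, had 62 members on the array, of which 47 were tested. Between activated and quiescent cells 15 were higher and 15 lower (median log2 difference -0.01), beside 31.8% of all genes higher and 38.2% lower. They were led upwards by Chn1 (3.06 ± 0.14), which encodes a Rac-inactivating protein downstream of EphA4, Dpysl3 (3.95 ± 0.19), a member of the collapsin response mediators of semaphorin signalling, and the integrin gene Itga6 (2.11 ± 0.14). Downwards they were led by Rras (-1.85 ± 0.18), a small GTPase that plexins act on, Mical1 (-1.52 ± 0.20), an actin-oxidising enzyme bound by plexins, and Elmo1 (-1.39 ± 0.21), a partner of Rac activation. Against non-myogenic cells 2 were higher in quiescent cells, the muscle cofilin gene Cfl2 (1.06 ± 0.17) and Vav3 (1.42 ± 0.24), and 27 were lower, with Dpysl3 (-3.48 ± 0.19), Itga6 (-2.35 ± 0.14) and the proteoglycan gene Cspg4 (-2.76 ± 0.22) in the lead, beside 26.4% of all genes higher and 26.6% lower. Activated cells had 9 higher and 23 lower than non-myogenic cells, beside 34.1% and 38.3% of all genes, led upwards by Chn1 (2.47 ± 0.15), Rasa1 (1.51 ± 0.20), which encodes a Ras-inactivating protein, and Vasp (1.55 ± 0.21), for an actin-elongating protein. Downwards the order was led by Rras (-2.92 ± 0.18), the kinase gene Fes (-3.04 ± 0.25) and Ablim1 (-4.22 ± 0.37), for an actin-binding LIM protein.

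Markers of other cell types moved with several of these results. The summed signal of 21 endothelial markers ran from 5219 to 8809 in quiescent, 344 to 470.04 in activated and 22396 to 26603 in non-myogenic cells, and that of 13 fibroblast markers from 14809 to 36829, 2744 to 3054 and 60042 to 108105. For 7 tenocyte markers the sums were 614 to 1260, 61.1 to 134 and 23780 to 42519, and for 12 pericyte and smooth muscle markers 9764 to 12094, 3688 to 7237 and 12015 to 24724. Schwann and glial markers (10 genes) summed to 5626 to 7362, 1579 to 2498 and 6403 to 8212. Leukocyte markers (12 genes) summed to 309.7 to 962, 291 to 315 and 449.6 to 823. For 10 mature myofibre markers the sums were 2291 to 7588, 1114 to 14057 and 12151 to 34928. These markers thus gave a clear signal in the fraction labelled as under 1% myogenic cells. Over the activated arrays the committed myoblast markers Myog and Mymk ran from 369 to 4532 and from 170 to 1549. Pecam1, an endothelial adhesion molecule, ran from 42.8 to 96.1 in quiescent and from 2.73 to 8.60 in activated cells. Of 19 tested endothelial markers 18 were lower in activated than in quiescent cells and 18 lower in quiescent than in non-myogenic cells. Their quiescent mean was a median of 22.6% of their non-myogenic mean (9.09% to 152%), that of fibroblast markers 13.6% and that of tenocyte markers 2.53%. For mature myofibre markers it was 20.4%. Not all lists were lower in this way: it was 87.0% for 5 leukocyte markers (73.0% to 155%) and 89.4% for 8 Schwann and glial markers (31.7% to 583%). Of the 12 pericyte and smooth muscle markers 8 were called lower and 2 higher in quiescent than in non-myogenic cells. Their median share was 30.9% (3.44% to 522%). The same share was 30.2% for Robo4, 34.4% for Efna1, 29.0% for Sema3b, 17.1% for Nrp1, 10.3% for Efnb2, 6.13% for Sema3c and 1.89% for Slit3. The part of other cells in the decreases of Robo4, Efna1, Sema3b and Ephb4 was not tested. Plxnd1, Plxna2, Robo1 and Sema4d were at 190.5%, 253%, 180.5% and 234% of their non-myogenic level in quiescent cells. Efnb2 and Unc5b were higher, and the endothelial sum lower, in activated than in quiescent cells. The part of other cells in these rises was not tested either.

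**Figure D4:**
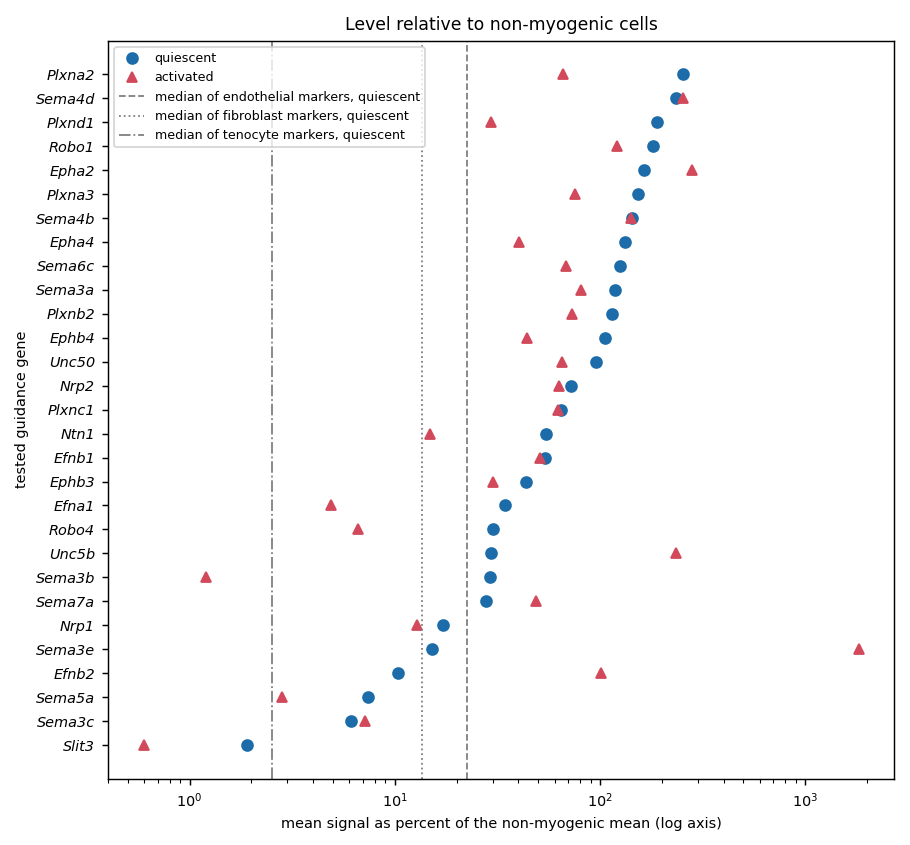
Mean signal of the 29 tested guidance genes (y axis) in quiescent (circles) and activated cells (triangles) as a percentage of their mean in non-myogenic cells (x axis, log scale), with lines at the median of endothelial (22.6%), fibroblast (13.6%) and tenocyte markers (2.53%) in quiescent cells. Plxna2 stands at 253% in quiescent cells and Slit3 at 1.89%, while Sema3e stands at 1820% in activated cells.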

How the data were processed

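RNA of 12 samples, 4 per group, was hybridised to 1 Affymetrix Mouse 430A array each. What the authors deposited is a linear intensity for each probe set, computed with MAS5 per the submitters' processing notes. Its version is not given in the sources used here. Arrays were scaled to a common mean trimmed by 2% at each tail, 235, and turned into log2(signal + 14.7). The platform annotation named the genes, and RefSeq's table held the Entrez ID of 20351 of the 20380 probe sets. Genes were tested with limma 3.58.1 in R 4.3.3 (lmFit, eBayes) on all 12 arrays with terms for group and kit, 8 residual degrees of freedom, and Benjamini-Hochberg adjustment over 7960 genes. Within-kit fits use the arrays of 1 kit. The fit was tested on simulated data.

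The guidance genes and the lists were chosen with earlier results of these data known. Every member could be named, since the symbol rule chose it, with values per array for those called at 2-fold or more and for the highest of each family. Sema3a, Sema4d and Robo1 are given per array too, chosen after their values were seen. Of the partner list the 3 genes with the smallest adjusted p are named per comparison and direction. Deviations from the group means correlated at 0.146 to 0.279 between same-numbered quiescent and activated arrays, and at -0.512 to -0.229 once the kit was a term. The replicate block is therefore given beside calls it changes. For pairs with non-myogenic arrays the correlations ran from -0.374 to 0.392. Alternatives were other pseudocounts, filters, scalings, probe set rules, weights, variance priors and each array left out. Markers were summed over the probe set used per gene. Figures were drawn with Python 3.11.15 and matplotlib 3.10.9.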

Additional observations from a re-analysis of the deposited data

Results flagged for a closer look

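Of 87 groups of 4 arrays checked for a single array far from the others, 3 had one, where chance gives about 1 in 20. On the log2(signal + 14.7) scale Nrp2 stood at 8.414 on non-myogenic array 1, the 1 non-myogenic array of the small-sample kit, against 6.887 to 7.032 on the others. Sema3e stood at 4.394 on quiescent array 4 against 3.954 to 4.006, and Sema5a at 4.108 on quiescent array 2 against 4.850 to 4.946. The values of Sema3e and Sema5a were low signals, but that of Nrp2, a signal of 326, was not.

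The difference between activated and quiescent cells itself differed between the labelling kits for 4 of the 29 tested members, and for 330 of 7960 genes in all (limma, kit by group interaction, a test added after the data were seen). The two-cycle minus small-sample difference was -1.29 for Plxnc1 (adjusted p 0.0422), -1.65 for Sema3e (0.0286), -2.06 for Unc50 (0.0126) and 1.352 for Unc5b (0.0459). Sema3e and Unc5b rose within both kits.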

How the results depend on the processing

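Of the 18, 20 and 25 calls of guidance genes between activated and quiescent, quiescent and non-myogenic, and activated and non-myogenic cells, 12, 14 and 18 kept direction and call in every alternative run that gave them a value. With 1 array left out the numbers of called members ranged from 15 to 22, 19 to 21 and 21 to 25, and those of called partner genes from 27 to 33, 26 to 31 and 29 to 34. Among the values that changed sign after centring on the median were Efnb1 (0.38) and Nrp1 (0.0045) between activated and quiescent cells and Plxnb2 (0.0154) between activated and non-myogenic cells. Other small differences below 0 changed sign too. That centring moved the median of all genes from -0.11 to 0.30 between activated and quiescent and from -0.07 to 0.36 between activated and non-myogenic cells, and the share of higher genes among all calls from 45.4% to 64.7% and from 47.1% to 63.2%; without scaling the share was 59.2% and the median 0.18 in the first comparison, and between quiescent and non-myogenic cells 20.7% in place of 49.8%, where the median moved from 0.03 to -0.34. Of partner genes 18 were called between activated and quiescent cells within the small-sample kit, and with every probe set on its own 51, 46 and 53 probe sets in the 3 comparisons, more features being tested. With a replicate block 17, 18 and 19 members were called, and Nrp2, Plxna2, Plxna3, Plxnc1, Sema6c and Unc50 were no longer called between activated and non-myogenic cells, nor Nrp2 and Sema3e between quiescent and non-myogenic cells. No detection calls were used, so signals of a few units have no known distance from background.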
